A study of Mus musculus with 2 samples.

Results

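Proteasome subunit genes were examined in fetal male germ cells of the mouse, as every gene in the deposited count tables whose symbol begins with Psma, Psmb, Psmc, Psmd, Psme, Psmf or Psmg. The rule took 50 of the 17244 genes listed for either library. Of these, 48 were listed at E13.5 and 50 at E12.5, since Psmb8 and Psmb11 were listed at E12.5 alone. The 50 genes sorted by role into the 7 alpha and 7 beta genes of the 20S core, 17 genes of the 19S regulatory particle, 1 germ cell alpha subunit, 4 immune and thymic catalytic subunits, 4 activator caps, 1 inhibitor and 7 assembly chaperones. The remaining matches by symbol alone, Psmc3ip and Psme2b, are not subunits: Psmc3ip (also called Hop2) encodes a meiotic recombination factor, and Psme2b is an intron-poor relative of the cap gene Psme2.

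The 26S proteasome is the main machine that breaks down proteins tagged with ubiquitin. Its barrel-shaped 20S core carries the proteolytic sites inside, between outer rings of alpha subunits that gate the entry. The 19S regulatory particle sits on the end of the barrel, binds and removes ubiquitin with its lid and receptors, and unfolds and threads the substrate with a ring of ATPases. Subunits are needed in matched amounts, and in mammals many of their genes respond together to the transcription factor Nrf1 (gene Nfe2l1) when proteasome activity is short. Later in spermatogenesis, meiotic germ cells build a form of their own in which PSMA8 takes the place of PSMA7.

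The cells were male, from embryos of the outbred CD1 strain at E13.5 and E12.5, and were sorted for green fluorescence from an Oct4GFP reporter, which marks germ cells at these stages. The number of embryos was not found in the labels. Each stage was 1 droplet library, so stage and library cannot be told apart, no test or p-value was possible, and every interval below covers counting error only. The E13.5 table held 2992 barcodes with 59842242 UMIs (unique molecular identifiers, 1 per captured molecule), and the E12.5 table held 2847 barcodes with 60383440 UMIs. After a filter on cell quality and clustering, 2552 germ-like cells remained at E13.5 and 2502 at E12.5, which was 95.6% and 95.5% of the barcodes that passed the filter. Their median depth was 21842.5 UMIs at E13.5 and 23474 at E12.5.

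The germ-like cells were chosen with the marker lists below, so the sums describe these cells and are no check of the sort label. All 16 germ cell markers were listed with UMIs in both stages, and together they made up 6739 of every 1000000 UMIs (CPM) of the germ-like cells at E13.5 and 5450 CPM at E12.5. The 10 Sertoli markers summed to 14.6 CPM at E13.5 and 12.8 CPM at E12.5, and the 8 macrophage markers to 0.580 and 1.69 CPM, with 6 and 1 of them at 0. Endothelial markers summed to 39.1 CPM at E13.5 and 99.8 CPM at E12.5, of which Pecam1 alone gave 25.6 and 77.3 CPM. Mesonephric markers summed to 84.8 CPM at E13.5 and 85.7 CPM at E12.5, of which Lhx1 alone gave 83.2 and 82.7 CPM. Erythroid markers summed to 22.4 CPM at E13.5 and 0.285 CPM at E12.5. The median mitochondrial share was 4.68% at E13.5 and 3.86% at E12.5. The part of these differences in the results below was not tested. The libraries shared 24 barcode sequences.

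In germ-like cells the 31 genes of the 26S particle, 14 of the core and 17 of the regulatory particle, together yielded 11083 CPM at E13.5 and 11966 CPM at E12.5. That is 1.108% of all UMIs of the germ-like cells at E13.5 and 1.197% at E12.5. The level at E13.5 was 0.926 of that at E12.5 (95% counting interval 0.923 to 0.929). The core and the regulatory particle did not stand equally far apart between stages. Core genes summed to 7542 CPM at E13.5 and 8271 CPM at E12.5, a ratio of 0.912 (0.908 to 0.916). Genes of the regulatory particle summed to 3541 CPM at E13.5 and 3695 CPM at E12.5, a ratio of 0.958 (0.953 to 0.964). These are differences of a few percent between single libraries. With cells of 2000 genes or more and under 5% mitochondrial UMIs alone, log2(E13.5/E12.5) was -0.061 for the 26S sum and -0.0084 for the 19S sum, against -0.11 and -0.06 over all germ-like cells.

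Read gene by gene, most subunits lay slightly lower at E13.5. Of the 50 genes, 46 reached 10 CPM in either library, and their median log2(E13.5/E12.5) was -0.09, with 35 below 0 and 11 above. The same median over all 7309 genes at that level was -0.02, with the middle 50% of genes between -0.27 and 0.22. The proteasome genes were packed more closely than that at their upper end, the middle 50% of them lying between -0.25 and -0.01. Only 1 of the 46 was at least 1.2-fold higher at E13.5, where 22.0% of all genes were, and 10 of the 46 were at least 1.2-fold lower, where 25.6% of all genes were. At 1.5-fold none of the 46 was higher and 1 was lower, against 8.59% and 9.96% of all genes. Thus the share of lower genes was near the background, and the share of higher genes was under it.

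**Figure D1:**
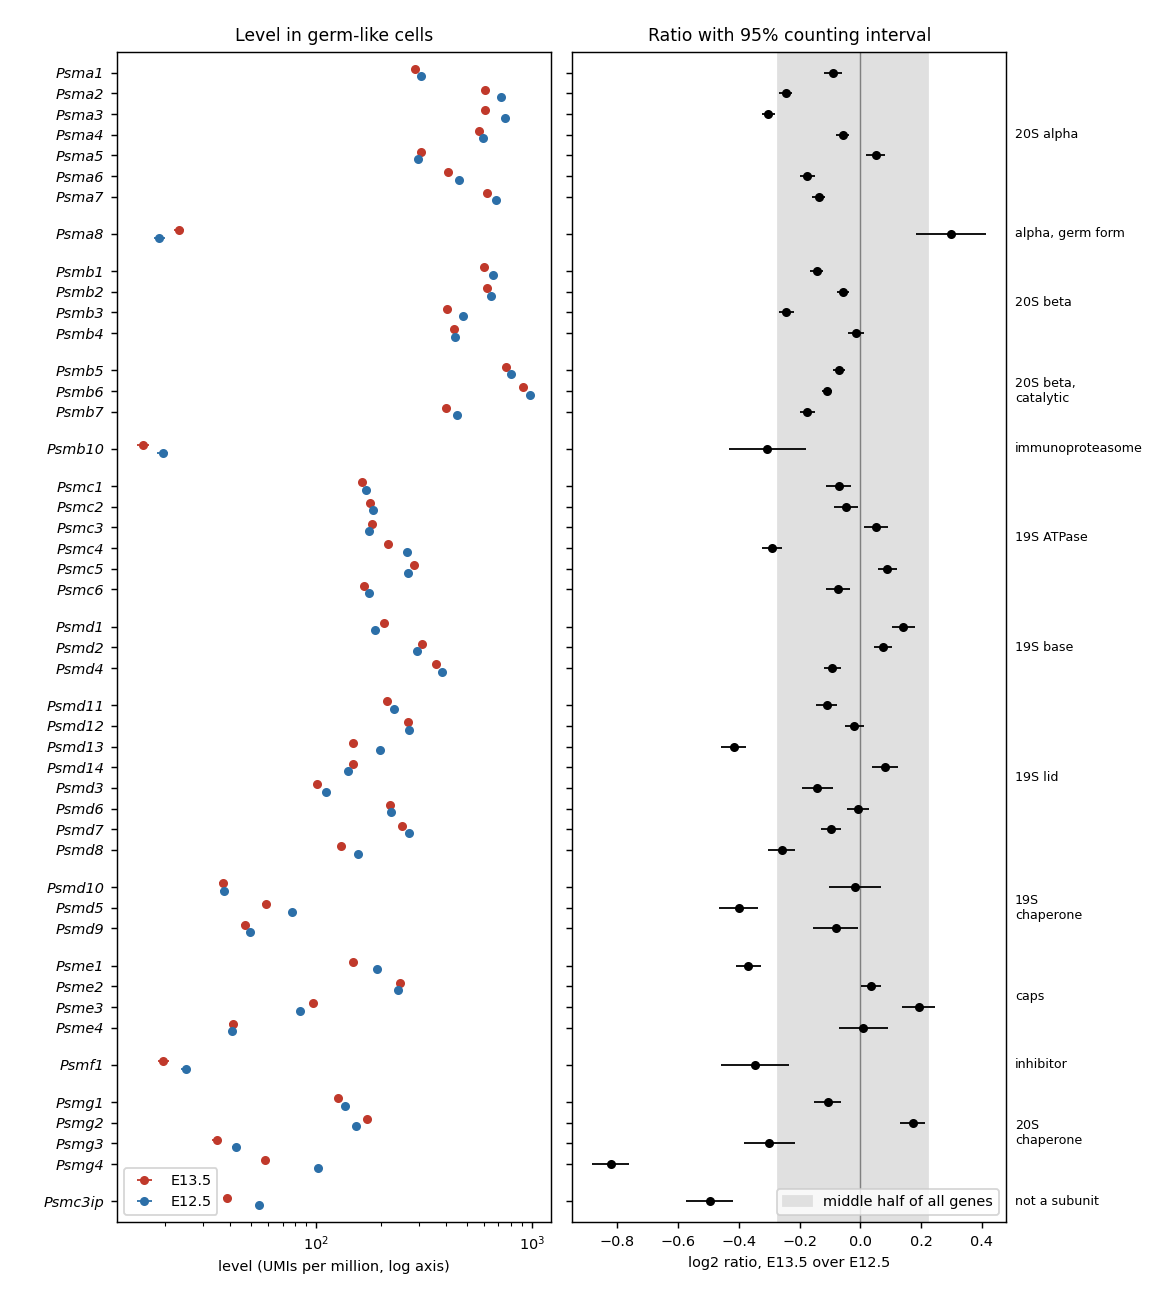
Level of each of the 46 proteasome genes that reach 10 CPM (left, CPM in germ-like cells on a log axis, E13.5 in red and E12.5 in blue) and log2(E13.5/E12.5) (right, bars are 95% counting intervals, the grey band holds the middle 50% of all genes). Most points lie inside the band and slightly below 0, Psmg4 lies farthest to the left, and Psma8 farthest to the right.

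The alpha ring showed the lowest summed ratio of the 6 groups of 26S genes. Its 7 genes together had 3406 CPM at E13.5 and 3807 CPM at E12.5, a ratio of 0.895 (0.889 to 0.900). Psma3 had 609.8 CPM at E13.5 and 752 CPM at E12.5, and its ratio of 0.811 (0.7995 to 0.8221) was the lowest of the core genes. Psma2, which overlaps AW209491 on its own strand and Gm25444 on the other, followed with 608 CPM at E13.5 and 721 CPM at E12.5. Psma5 was the one core gene above 1, with 306 CPM at E13.5 and 295 CPM at E12.5 (1.035, 1.014 to 1.057). The other alpha genes, Psma1, Psma4, Psma6 and Psma7, had ratios between 0.886 and 0.961. Psma3 lies on chromosome 12 at 70974621 to 70996347 (GRCm38, plus strand), where a gene annotated on the other strand, 3110056K07Rik, overlaps it.

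Among the beta subunits, the 3 that carry the proteolytic sites of the standard particle were the most unequal in level. Psmb6, the caspase-like site, was the most abundant proteasome gene, with 912 CPM at E13.5 and 983 CPM at E12.5. Psmb5, the chymotrypsin-like site that proteasome inhibitor drugs target, had 760.1 CPM at E13.5 and 798 CPM at E12.5. Psmb7, the trypsin-like site, had 400.1 CPM at E13.5 and 451 CPM at E12.5. Thus 3 subunits that sit in the same ring in equal number differed 2.28-fold in UMIs at E13.5 and 2.18-fold at E12.5. A UMI is counted at a transcript's 3' end and does not scale with its length, but how well each transcript is caught was not measured. The 3 catalytic genes together stood at 0.928 (0.921 to 0.935) of their E12.5 level, and the 4 structural beta genes, Psmb1, Psmb2, Psmb3 and Psmb4, at 0.925 (0.918 to 0.932).

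Alternative catalytic subunits gave few UMIs. Psmb8, which replaces Psmb5 in the immunoproteasome of immune and interferon-treated cells, was not listed at E13.5, where genes found in fewer than 3 barcodes are left out. At E12.5 it had 3 UMIs in 3 barcodes of the whole table and 0 in germ-like cells, for which the exact Poisson upper limit is 0.0618 CPM. Psmb9, which replaces Psmb6, had 30 UMIs at E13.5 and 12 UMIs at E12.5, or 0.512 and 0.201 CPM, a ratio of 2.55 with a wide interval (1.27 to 5.46). Psmb11, the subunit of thymic cortical epithelium, was not listed at E13.5 and had 4 UMIs at E12.5. Psmb10, which replaces Psmb7, was the exception with 15.8 CPM at E13.5 and 19.5 CPM at E12.5 (ratio 0.809, 0.741 to 0.882). At E13.5 it thus stood far under Psmb7, at 923 UMIs beside 23434.

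Psma8, the alpha subunit of the spermatoproteasome, was the one gene past 1.2-fold higher among the 46 at 10 CPM or more. It had 23.1 CPM at E13.5 and 18.8 CPM at E12.5 (1.23, 1.14 to 1.33), which came to 0.531 UMIs per cell at E13.5 and 0.448 at E12.5. Psma7, the subunit it replaces, had 618 CPM at E13.5 and 680.0 CPM at E12.5. RNA of Psma8 was thus detected before meiosis of the male germ line, at a level far below that of Psma7. Protein and assembled particles were not measured.

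In the regulatory particle, the groups of genes lay on both sides of the E12.5 level. The 6 ATPase genes, which form the unfolding ring, summed to 1187 CPM at E13.5 and 1235 CPM at E12.5, a ratio of 0.961 (0.951 to 0.971). Psmc4 had the lowest ratio among them, with 215 CPM at E13.5 and 263 CPM at E12.5 (0.817, 0.798 to 0.837), and Psmc5 the highest, with 283 and 266 CPM (1.064, 1.041 to 1.087). The other base genes, the scaffolds Psmd1 and Psmd2 and the ubiquitin receptor Psmd4, summed to 875 CPM at E13.5 and 864 CPM at E12.5 (1.013, 1.001 to 1.026). Psmd1, with 208 CPM at E13.5 and 188 CPM at E12.5, had the highest ratio of the 31 genes, at 1.103 (1.075 to 1.132). It overlaps Gm22786, Gm37914 and Gm21972 on its own strand and Htr2b on the other.

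The lid, which carries the deubiquitinating enzyme, summed to 1479 CPM at E13.5 and 1597 CPM at E12.5, a ratio of 0.927 (0.918 to 0.935). Psmd13 stood lowest of all 31 genes of the particle, with 149 CPM at E13.5 and 199 CPM at E12.5 (0.749, 0.728 to 0.770). Psmd8 was next in the lid with 131 CPM at E13.5 and 157 CPM at E12.5. Psmd14, the deubiquitinase itself, was the lid gene above 1, with 148 CPM at E13.5 and 139.9 CPM at E12.5 (1.058, 1.027 to 1.091). Psmd3, Psmd6, Psmd7, Psmd11 and Psmd12 had ratios between 0.906 and 0.994. Psmd13 overlaps Gm15542 on its own strand and Sirt3 on the other, and the labels do not say whether counting used strand.

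Caps that bind the ends of the core in place of the regulatory particle went different ways. Psme1 and Psme2 encode partners of 1 ring, the PA28 activator known from antigen processing. Psme1 had 149 CPM at E13.5 and 192 CPM at E12.5 (0.774, 0.753 to 0.796), whereas Psme2 had 245 CPM at E13.5 and 239 CPM at E12.5 (1.024, 1.001 to 1.049). Psme3, the nuclear activator of ubiquitin-independent breakdown, had 96.5 CPM at E13.5 and 84.5 CPM at E12.5 (1.142, 1.100 to 1.187). Psme4, a cap linked to histone breakdown in male germ cells, had 41.2 and 40.9 CPM, a difference within counting error (1.007, 0.951 to 1.066). Psmf1, which encodes an inhibitor of the isolated core, had 19.6 CPM at E13.5 and 24.9 CPM at E12.5 (0.786, 0.727 to 0.849). Psme2b lay under 10 CPM in both stages, with 8.88 CPM at E13.5 and 9.38 CPM at E12.5, and reads of such a close relative of Psme2 may have been split between the genes.

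Among the 46 genes at 10 CPM or more, the largest ratio between stages in either direction was that of an assembly chaperone. Psmg4, whose product pairs with that of Psmg3 to help build the alpha ring, had 58.0 CPM at E13.5 and 103 CPM at E12.5, a ratio of 0.566 (0.542 to 0.590). Psmg3 was also lower, with 34.6 CPM at E13.5 and 42.6 CPM at E12.5 (0.813, 0.766 to 0.862). Of the other chaperone pair for the same ring, Psmg1 had 126 CPM at E13.5 and 136 CPM at E12.5 (0.928, 0.899 to 0.958), and Psmg2 had 172 and 153 CPM (1.127, 1.095 to 1.159). Partners of both pairs thus stood unequally far apart. Of the chaperones of the ATPase ring, Psmd5 had 58.4 CPM at E13.5 and 77.1 CPM at E12.5 (0.758, 0.725 to 0.792). Psmd9 and Psmd10 had ratios of 0.945 and 0.987. Psmg4 lies on chromosome 13 at 34162964 to 34178173 (GRCm38, plus strand) with no other annotated gene over it.

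Psmc3ip, the recombination factor that the symbol rule brought in, had 38.7 CPM at E13.5 and 54.6 CPM at E12.5 (0.709, 0.672 to 0.748). It differed from the subunits within stages as well. Counts of proteasome genes given here include it, among them the 10 of 46 at least 1.2-fold lower at E13.5.

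Genes that work with the proteasome were read from lists of neighbouring factors. The 2 subunits of the 19S particle that carry other symbols stood close to their neighbours: Adrm1, a ubiquitin receptor, had 200.5 CPM at E13.5 and 226 CPM at E12.5, and Shfm1, a small lid subunit, had 407 and 404 CPM. In the list of other subunits and assembly factors, 11 of 13 genes reached 10 CPM, with a median log2 ratio of -0.15, and 2 were at least 1.2-fold higher and 3 lower, beside 22.0% and 25.6% of all genes. Pomp, the maturation factor of the core, had 364 CPM at E13.5 and 455 CPM at E12.5. Ipo9, an importer that carries proteasomes into the nucleus in human cells, was the one gene of these lists past 1.5-fold among those at 10 CPM or more, with 19.8 CPM at E13.5 and 32.3 CPM at E12.5 (0.614, 0.570 to 0.661). Zfand5, which binds the 26S particle, was the highest of the list with 153 CPM at E13.5 and 122 CPM at E12.5.

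Among genes of ubiquitin itself, Ubb, a polyubiquitin gene, had 3497 CPM at E13.5 and 2669 CPM at E12.5 (1.310, 1.302 to 1.319), and 2 of 9 genes of ubiquitin and its activating and conjugating enzymes were at least 1.2-fold higher, where 22.0% of all genes were, and none lower, where 25.6% were. The most abundant gene of that list, Rps27a, which encodes ubiquitin fused to a ribosomal protein, had 7189 CPM at E13.5 and 6993 CPM at E12.5. Of 12 shuttle factors and partners of the p97 unfoldase, 2 were at least 1.2-fold higher and 4 lower, again beside 22.0% and 25.6% of all genes. Vcp, p97 itself, had 348 CPM at E13.5 and 383 CPM at E12.5.

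Of the known regulators of proteasome genes, 8 of 12 reached 10 CPM, with a median log2 ratio of -0.30, 1 at least 1.2-fold higher and 5 lower, beside the same 22.0% and 25.6%. Nfe2l1 had 44.7 CPM at E13.5 and 50.9 CPM at E12.5 (0.877, 0.832 to 0.924). Nfyb, a subunit of the CCAAT-binding factor, had 48.1 CPM at E13.5 and 63.5 CPM at E12.5 (0.758, 0.721 to 0.796), and Mafg, a partner of Nrf1, had 102 and 83.2 CPM (1.225, 1.180 to 1.272). The other large complexes set beside the proteasome differed from each other. The 7 measured genes of TRiC, the ring-shaped chaperonin that folds actin and tubulin, each lay above 0, with a median log2 ratio of 0.10. Of 29 nuclear genes of oxidative phosphorylation, 9 lay above 0, with a median of -0.04 and 4 at least 1.2-fold lower, beside 25.6% of all genes.

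In other barcodes of the same libraries the 26S genes took a smaller share. The 29 Sertoli-like cells of both libraries together had 7729 CPM (7447 to 8019). Barcodes with 10% or more mitochondrial UMIs had 6975 CPM at E13.5 and 6671 CPM at E12.5, with median depths of 3221 and 3523 UMIs. A cluster with no name and a median depth of 1897 UMIs had 8147 CPM at E13.5 and 11442 CPM at E12.5. These classes hold 25 and 4, 91 and 45, and 92 and 112 barcodes of the 2 stages, so their levels rest on few cells.

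To measure variation between cells free of depth, each germ-like cell was thinned at random to 14500 UMIs, which left 2323 cells at E13.5 (229 shallower cells left out) and 2325 at E12.5 (177 left out). A thinned cell held 161 ± 26.9 UMIs of 26S genes at E13.5 and 173 ± 25.8 at E12.5 (mean ± SD over cells of 1 library, which are not replicates). Counting error alone would give an SD of 12.7 at E13.5 and 13.2 at E12.5. The 5th and 95th percentiles were 115 and 203 UMIs at E13.5, and 129 and 214 UMIs at E12.5. The spread left after removing counting error, called the excess CV (the SD beyond counting error as a share of the mean), was 14.7% at E13.5 and 12.8% at E12.5. With cells of 2000 genes or more and under 5% mitochondrial UMIs alone the order turned, at 12.54% and 12.85%.

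**Figure D2:**
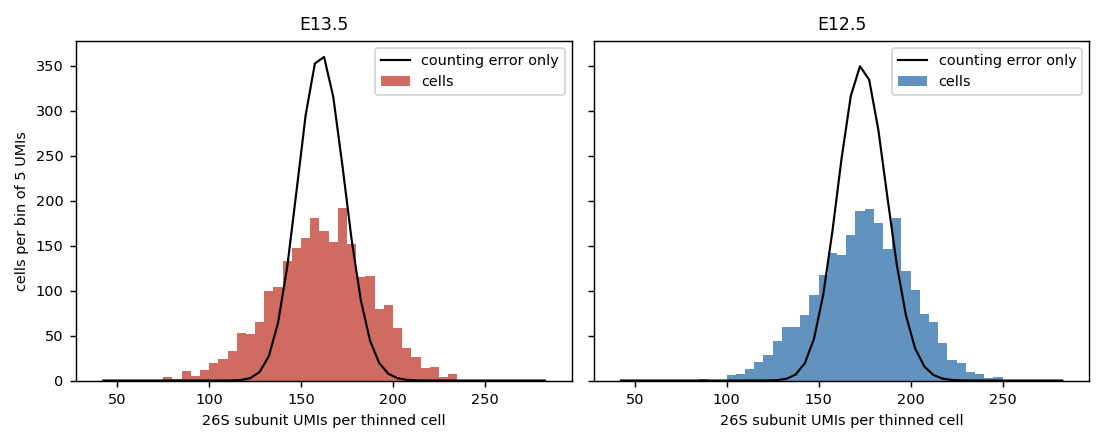
Number of germ-like cells by their summed UMIs of 31 26S genes after thinning to 14500 UMIs, in bins of 5 UMIs, at E13.5 (left, 2323 cells) and E12.5 (right, 2325 cells), with the curve that counting error alone would give. Each distribution is wider than its curve, with means of 161 and 173 UMIs.

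The core and the regulatory particle varied to different degrees at E13.5. The excess CV of the core sum was 14.2% at E13.5 and 12.9% at E12.5, and that of the 19S sum was 17.4% and 13.9%. Within the 19S particle the ATPases and the lid had 20.2% each at E13.5, against 16.8% and 15.7% at E12.5, while the other base genes had 14.4% at E13.5 and 10.4% at E12.5. Measured the same way, the TRiC sum had 17.3% at E13.5 and 13.0% at E12.5, the oxidative phosphorylation sum 9.20% and 7.49%, and the ribosomal protein sum 8.35% and 7.30%. The 26S sum thus varied more than the ribosomal protein and oxidative phosphorylation sums in both libraries, less than the TRiC sum at E13.5 and about as much as it at E12.5.

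At the levels where most subunits lie, single subunit genes had somewhat higher medians of excess CV than all genes in the same class of level. Of the 42 proteasome genes at 0.5 UMIs or more per thinned cell at E13.5, 30 had an excess CV below the median of all genes, where 50% lie by definition, and at E12.5 it was 31 of 43, again beside 50%. Excess CV depends on level, and proteasome genes are abundant. Among genes at 2 to under 5 UMIs, the proteasome median was 22.8% at E13.5 and 20.2% at E12.5, against 20.01% and 18.0% for all genes of that level. Only 6 of 19 proteasome genes at E13.5 and 7 of 20 at E12.5 lay under the median there. At 5 UMIs or more the medians were 16.2% and 15.7% for proteasome genes, against 15.5% and 15.04% for all, with 3 of 13 and 4 of 13 under the median. That class has no upper limit and holds genes more abundant than any subunit, so it is not matched for level. Among the sparsest genes, at 0.5 to under 2 UMIs, 8 of 10 at E13.5 and 9 of 10 at E12.5 lay under it.

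Among the 31 genes, a few lid and ATPase genes led the variation at E13.5. Psmd7, a scaffold partner of the deubiquitinase in the lid, had the highest excess CV of the 31 genes in both libraries, 32.8% at E13.5 and 33.2% at E12.5. Psmc4 had 31.4% at E13.5 and 18.7% at E12.5, Psmd14 had 30.2% and 21.5%, and Psmd6 had 29.5% and 21.3%. At E12.5 the gene of the 31 next after Psmd7 was a core gene, Psmb3, with 23.3%, against 18.6% at E13.5. At the other end Psmb1, a structural beta subunit, had 9.53% at E13.5 and 13.3% at E12.5. Psmc3ip had 48.0% at E13.5 and 4.32% at E12.5, the widest gap between stages, and the variance of Psme4 did not exceed its mean in either library. Both genes are sparse, at 0.564 and 0.610 UMIs per thinned cell at E13.5 and 0.802 and 0.586 at E12.5. No interval was set on an excess CV, so low values of such genes are uncertain. Psmc3ip also differed between S phase groups at E12.5, as given below, so its 4.32% does not show an even level.

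**Figure D3:**
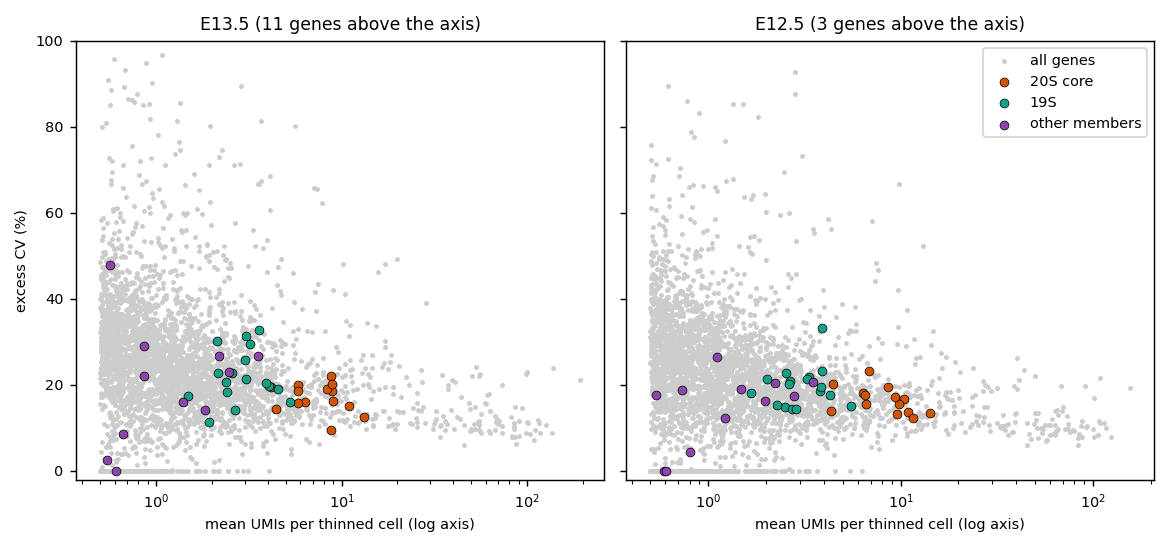
Excess CV of genes against their mean UMIs per thinned cell (log axis) at E13.5 (left) and E12.5 (right), all genes at 0.5 UMIs or more in grey and proteasome genes in colour. Proteasome genes lie within the cloud of genes of like level, with Psmd7 near the top of theirs in both panels and Psmc3ip high at E13.5 alone.

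Subunit genes varied together from cell to cell, weakly for single pairs and more clearly for sums. Over the 465 pairs of the 31 genes, the median Pearson r over thinned cells of 1 library was 0.090 at E13.5 and 0.070 at E12.5. For all pairs among genes of the same range of levels it was 0.007 at E13.5 and 0.005 at E12.5. Of the subunit pairs 40.6% had an r above 0.1 at E13.5 and 28.6% at E12.5, where 3.39% and 0.748% of all pairs did. The other genes were not matched to the subunits in level within that range, and the part of level in these differences was not tested. Values of this size for single pairs in sparse counts are no finding alone, and all cells of a stage share 1 library.

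Single pairs within the core had the highest median r, and core genes are also the more abundant. It was 0.117 at E13.5 and 0.107 at E12.5, against 0.073 and 0.039 for pairs within the regulatory particle and 0.086 and 0.068 for pairs across. The highest single value at E13.5 was 0.239, between Psma3 and Psma7, and at E12.5 it was 0.195, between Psma4 and Psmb2. Psma6 and Psma2 had the highest mean r with the other subunits at E13.5, 0.139 and 0.137. Psmd2, a scaffold of the base, had the lowest mean r in both libraries, 0.026 at E13.5 and 0.007 at E12.5, and Psmd8, Psmd3 and Psmd1 were next lowest. Summed over genes, the core and the regulatory particle had an r of 0.557 at E13.5 and 0.508 at E12.5. With the variance of counting removed these came to 0.859 and 0.874. Sums within the core were not more alike than sums within the regulatory particle at E13.5: the alpha ring and the structural beta genes had an r of 0.384 at E13.5 and 0.414 at E12.5 (0.840 and 0.949 with counting variance removed), and the ATPases and the lid 0.413 and 0.299 (0.943 and 0.852).

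**Figure D4:**
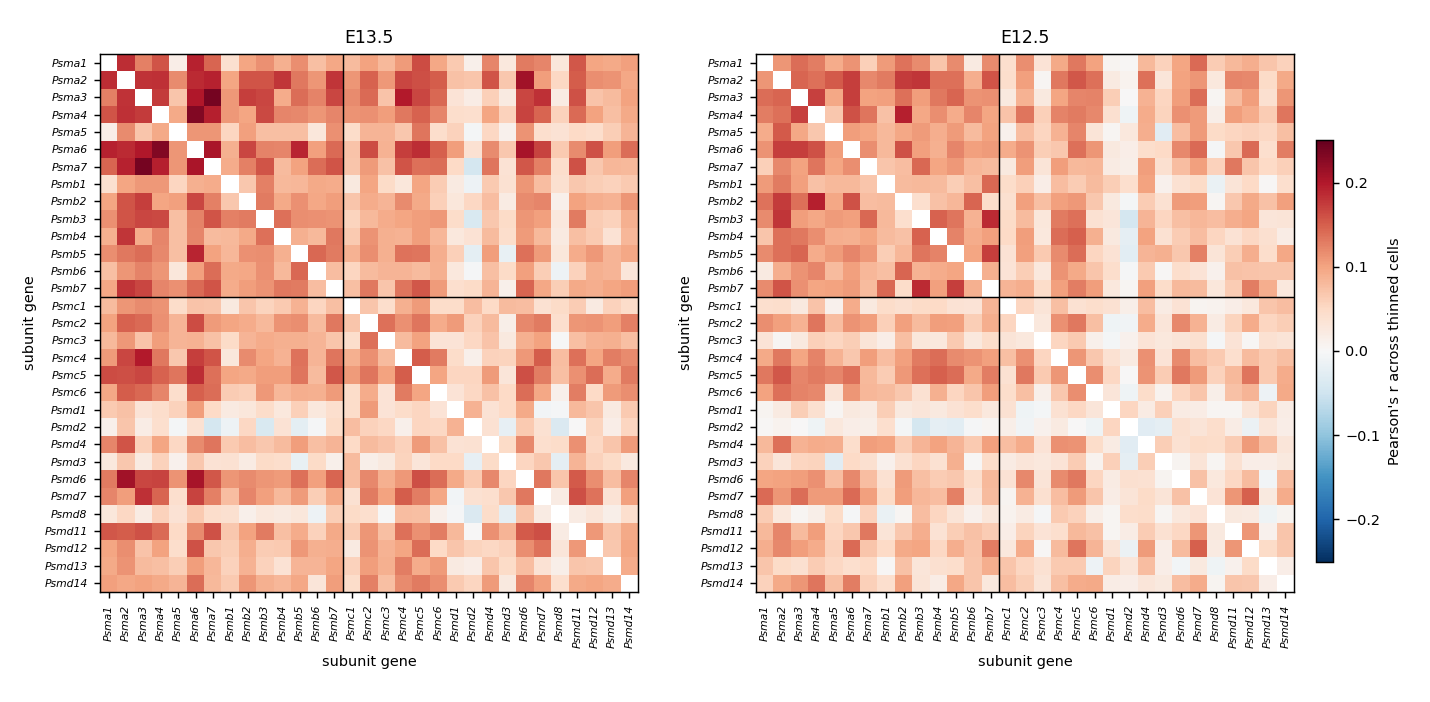
Pearson r between the 31 26S genes over thinned germ-like cells at E13.5 (left, 2323 cells) and E12.5 (right, 2325 cells), with genes in the order of core alpha, core beta, ATPase, base and lid. The block of core genes is the warmest in both panels, the scale ends far below 1, and the row of Psmd2 is pale or cool.

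The stretches before the transcription starts of 4 core genes are printed because these genes carry the results above: Psma3 and Psma7 are the pair of highest r at E13.5, and Psmb5 and Psmb6 are the most abundant subunits. Sequences are from RefSeq for GRCm38.p6, 250 bases 5' to 3' on the gene's strand, ending at the base before the start in that table. They are Psma3 at chr12:70974373-70974622 (plus), Psma7 at chr2:180042465-180042714 (minus), Psmb5 at chr14:54617996-54618245 (minus) and Psmb6 at chr11:70525107-70525356 (plus). Capitals mark matches, on either strand, to TGACNNNGC, the core letters of the antioxidant response element that Nrf1 binds, and to CCAAT, the NF-Y box.
Psma3: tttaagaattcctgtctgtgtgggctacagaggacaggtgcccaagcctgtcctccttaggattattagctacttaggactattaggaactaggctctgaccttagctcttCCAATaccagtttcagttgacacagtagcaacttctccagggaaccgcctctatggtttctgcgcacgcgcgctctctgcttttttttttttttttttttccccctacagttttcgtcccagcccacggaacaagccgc
Psma7: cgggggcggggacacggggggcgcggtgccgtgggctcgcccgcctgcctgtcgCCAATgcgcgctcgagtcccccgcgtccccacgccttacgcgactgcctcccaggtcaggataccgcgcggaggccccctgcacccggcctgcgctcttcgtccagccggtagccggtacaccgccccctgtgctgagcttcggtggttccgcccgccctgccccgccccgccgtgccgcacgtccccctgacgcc
Psmb5: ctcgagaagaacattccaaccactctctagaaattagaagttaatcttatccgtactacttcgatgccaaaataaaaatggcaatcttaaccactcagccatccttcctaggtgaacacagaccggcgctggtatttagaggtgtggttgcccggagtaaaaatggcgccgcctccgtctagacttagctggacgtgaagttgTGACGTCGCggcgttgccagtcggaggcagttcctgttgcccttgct
Psmb6: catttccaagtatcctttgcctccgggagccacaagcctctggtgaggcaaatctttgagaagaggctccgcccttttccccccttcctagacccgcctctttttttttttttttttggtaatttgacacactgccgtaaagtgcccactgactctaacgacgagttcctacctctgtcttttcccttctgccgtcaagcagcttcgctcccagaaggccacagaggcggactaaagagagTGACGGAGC

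Psma3 and Psma7 each hold 1 CCAAT and no TGACNNNGC, and Psmb5 and Psmb6 each hold 1 TGACNNNGC and no CCAAT. Of the 50 genes, 42 were matched in the table, and 5 of them (11.9%) held TGACNNNGC within 250 bases before a start, against 11.5% of all 27025 genes. CCAAT was held by 15 of the 42 (35.7%), against 37.5% of all genes, and none held both. Both shares are near those of all genes. A match is a description of letters and not a binding site, and no match says nothing of the factor. The 42 genes had a median GC content of 57.6% over these stretches, against 52.4% for all genes in the table.

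Beyond its own genes, the 26S sum of a cell went with that of TRiC. The Pearson r of these sums over thinned cells was 0.609 at E13.5 and 0.528 at E12.5 (Spearman 0.595 and 0.511). With the oxidative phosphorylation genes the r was 0.472 at E13.5 and 0.298 at E12.5. With the ribosomal protein genes it was -0.574 at E13.5 and -0.563 at E12.5, and with mitochondrially encoded genes -0.407 and -0.162. All these sums are parts of the same 14500 UMIs, in which ribosomal protein genes held 4637 UMIs per cell at E13.5 and 4488 at E12.5, so a cell rich in them has fewer left for others. A cell's total before thinning had an r of 0.017 with the 26S sum at E13.5 and 0.079 at E12.5.

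When ribosomal protein and mitochondrially encoded genes were removed and cells thinned to 5000 UMIs of the rest, the r of the 26S and TRiC sums was 0.389 at E13.5 and 0.266 at E12.5. Thinning to 5000 UMIs with those genes kept gave 0.418 and 0.298. The excess CV of the 26S sum was 12.4% at E13.5 and 10.9% at E12.5 with them removed.

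Cells were also ranked by scores of S phase and G2/M genes and cut into 4 groups of equal size, which are ranges of a score and not cell types. From the lowest to the highest S phase score the 26S level was 10269, 11070.4, 11432 and 11549 CPM at E13.5, and 11509, 11984, 12062 and 12293 CPM at E12.5. The top group over the bottom group came to 1.12 (1.11 to 1.13) at E13.5 and 1.07 (1.06 to 1.08) at E12.5. By G2/M score the ratio was 1.09 (1.08 to 1.10) at E13.5 and 0.987 (0.978 to 0.995) at E12.5. Median depth before thinning differed between these groups, 23450 UMIs in the top and 20572 in the bottom S phase group at E13.5, and 22745 and 26156.5 at E12.5. At 5000 UMIs per cell, the log2 ratio of top over bottom S phase group was 0.040 at E13.5 and 0.054 at E12.5 with ribosomal protein and mitochondrially encoded genes removed, against 0.15 and 0.088 with them kept. By G2/M score it was 0.0060 at E13.5 and -0.060 at E12.5 with those genes removed, against 0.10 and -0.011 with them kept.

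Few proteasome genes passed 1.2-fold between these groups, as a share of those counted. By S phase score, 8 of 47 were higher in the top group at E13.5 and 2 lower, where 26.4% and 24.4% of all genes were. At E12.5 it was 3 of 46 and none, beside 12.9% and 15.4%. By G2/M score, 9 of 47 were higher and 4 lower at E13.5, beside 26.5% and 23.9% of all genes. At E12.5 it was 3 and 2 of 47, beside 20.1% and 9.77%. The shares of all genes include sparser genes, which carry more counting error, and were not matched for level. By S phase score, 29 of the 31 26S genes were higher in the top group in each library. Their median log2 ratio was 0.137 at E13.5 and 0.106 at E12.5, against 0.0070 and -0.0015 for all genes. By G2/M score 23 were higher at E13.5 and 12 at E12.5, with medians of 0.137 and -0.027, beside 0.018 and 0.034. Values by gene, here and below, were not repeated with ribosomal protein and mitochondrially encoded genes removed. The S phase ratio of the 26S sum was smaller on that base in both libraries.

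Psmc4 and Psmd13 passed 1.2-fold by S phase score in both libraries. Psmc4 had 271 CPM in the top and 157 CPM in the bottom S phase group at E13.5 (1.72, 1.61 to 1.84), and 294 and 236 CPM at E12.5 (1.247, 1.175 to 1.324). Psmd13 was at 165 and 125 CPM at E13.5 (1.32) and 217 and 178 CPM at E12.5 (1.22). Psma3 had 677 and 492 CPM at E13.5 (1.38, 1.32 to 1.43) and 769 and 745 CPM at E12.5 (1.03, 0.997 to 1.07). Psmd7 followed the G2/M score instead, with 279.9 CPM in the top and 199 CPM in the bottom group at E13.5 (1.408, 1.322 to 1.4996), and 291 and 231 CPM at E12.5 (1.26, 1.19 to 1.34).

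Some genes stood the other way. Psmg4 had 50.3 CPM in the top and 66.1 CPM in the bottom S phase group at E13.5 (0.761, 0.669 to 0.865), and 101 and 99.1 CPM at E12.5 (1.023, 0.929 to 1.127). Psmb10 had 10.4 CPM in the top and 19.2 CPM in the bottom G2/M group at E13.5 (0.543, 0.414 to 0.708), and 21.5 and 18.0 CPM at E12.5 (1.19, 0.956 to 1.49). Psmc3ip, the recombination factor, had 61.8 CPM in the top and 20.3 CPM in the bottom S phase group at E13.5 (3.05, 2.56 to 3.64), and 67.4 and 45.1 CPM at E12.5 (1.49, 1.31 to 1.70). It exceeded every subunit in this ratio in both libraries.

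Most germ-like cells at E13.5 fell into 4 clusters of 20 or more cells, and the 26S level differed among them. In the cluster that Nanos2 leads, the RNA-binding factor of the male germ cell fate, the level was 10158 CPM, in that led by Krt17 12159, in that led by Hist1h2ae 11341 and in that led by Tuba3b 10860.1. At E12.5 the clusters led by Hist1h1b, Phlda2, Tmsb4x and Plk2 had 12006, 12418, 11508 and 11816 CPM. The cluster led by Plk2 held only 25 cells (11527 to 12110 CPM), and the others at E12.5 held 1020, 785 and 671. Levels at E12.5 were thus within a narrower range, and the cluster led by Krt17 at E13.5 lay inside it. The cells were clustered on genes of the same libraries, so these values describe the clusters and are no test.

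The 826 cells of the cluster led by Nanos2 had 10158 CPM of 26S genes, against 11459 CPM in the 1726 other germ-like cells of E13.5, a ratio of 0.886 (0.882 to 0.891). Of the 31 genes, 27 lay below 1. Of the 46 proteasome genes tested, 12 were at least 1.2-fold lower in this cluster, where 22.3% of all genes were, and 1 was higher, where 21.8% were. Psmc4 was the lowest subunit with 154 CPM in the cluster and 239.9 CPM in the other cells (0.642), followed by Psmd13 with 121 and 160.3 CPM (0.752). Psmd2, with 331 and 301 CPM (1.10), was the highest of the 31. Psmb10, with 19.5 and 14.2 CPM (1.37), was the gene of the 46 past 1.2-fold higher, and Psmc3ip had 22.3 and 45.4 CPM (0.491). The cluster led by Nanos2 had the lowest median S phase and G2/M scores of the E13.5 clusters, 0.399 and 0.523. The bottom groups by these scores at E13.5 had medians of 0.364 and 0.4995. Cells shared by the cluster and those groups were not counted, so contrasts by cluster and by score may not be separate results.

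Ribosomal protein genes took 34.4% of UMIs in the cluster led by Nanos2 and between 30.6% and 31.2% in the other E13.5 clusters, and mitochondrially encoded genes 5.26% against 4.34% to 4.55%. Its median depth was 19498 UMIs, the lowest of the E13.5 clusters. Counted among UMIs outside those genes, the 26S level was 16843 CPM in this cluster, 18757 in that led by Krt17, 17604 in that led by Hist1h2ae and 16858 in that led by Tuba3b. On that base the clusters led by Nanos2 and Tuba3b lay at nearly the same level. Without the cells of the Nanos2 cluster, the 26S sum had a log2(E13.5/E12.5) of -0.06, against -0.11 with them.

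**Figure D5:**
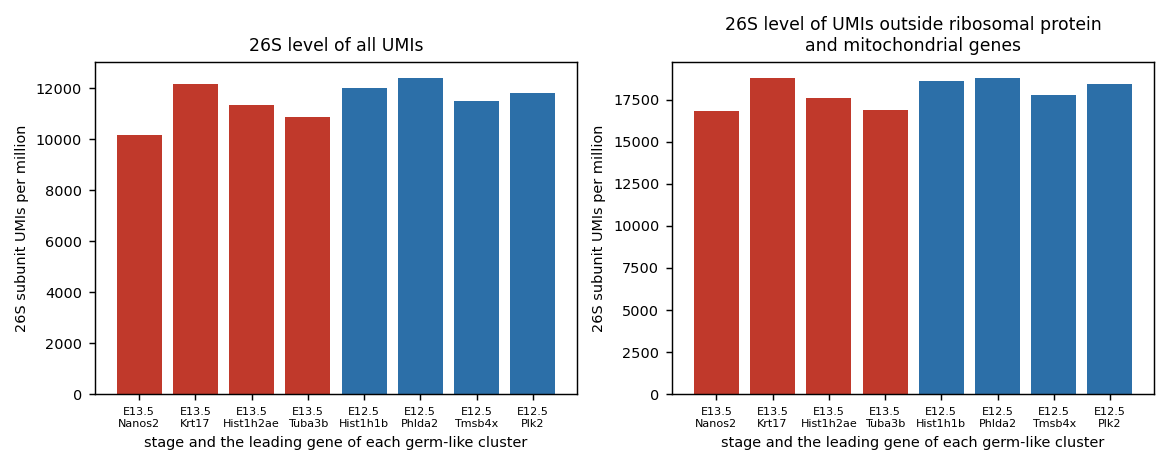
Summed level of the 31 26S genes in each germ-like cluster, named by stage and its leading gene, as CPM of all UMIs (left) and as CPM of UMIs outside ribosomal protein and mitochondrially encoded genes (right). E13.5 clusters are red and E12.5 clusters blue, and the cluster led by Nanos2 is the lowest in the left panel at 10158 and close to that led by Tuba3b in the right panel. The cluster led by Plk2 holds 25 cells.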

How the data were processed

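Raw UMI counts per gene and barcode were used as deposited by the authors, 1 table per stage. Libraries followed the 10x v2 protocol, per the labels' protocols. Cell Ranger and the build mm10 (GRCm38) are named in the submitters' processing notes, while the gene annotation was not given in the sources used here. No listed gene was in fewer than 3 barcodes, and no barcode held fewer than 201 genes.

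A barcode was kept when it had at least 500 genes and mitochondrial UMIs under 10% (231 had fewer genes and 91 more mitochondrial UMIs at E13.5, 181 and 45 at E12.5). Both libraries were clustered jointly in scanpy 1.11.5 using leidenalg 0.10.2 (2000 variable genes, 30 components, 15 neighbours, resolution 0.5). Germ-like and Sertoli-like clusters were named from marker lists, and germ-like cells with macrophage or erythroid markers at 0.5% or more of UMIs (1 at E13.5, 3 at E12.5) were left out. Scrublet (expected rate 0.06) called 27 doublets among germ-like cells at E13.5 and 65 at E12.5, kept in the main values. Counts were summed per library over 58574757 UMIs at E13.5 and 59687661 at E12.5 and given as CPM. Intervals are 95%, exact Poisson for levels and exact conditional binomial for ratios. Ratios need 3 UMIs in each library, and 1.2-fold and 1.5-fold are classes of size. Thinning was to 14500 UMIs, set from the 10th percentile of depth in the shallower library, in steps of 500. Every proteasome gene could be named, and of the lists the members past 1.5-fold, the highest, the lowest and the most abundant. Adrm1, Shfm1, Nfe2l1, Pecam1 and Lhx1 fall outside that rule and were named after their values were seen. The genes and lists were chosen with earlier results of these data known. All 50 genes were located in GENCODE M21 (GRCm38), and 10 overlap another gene on their strand and 19 one on the other. Interval coverage and recovery of the excess CV were checked on simulated counts, coverage only for genes without variation beyond counting error. Alternatives were TMM scaling (edgeR 4.0.16), another denominator, other cell filters, doublets left out, equal weight per cell, 3 germ markers per barcode in place of clusters, other minimum levels and other thinning depths.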

Additional observations from a re-analysis of the deposited data

How the results depend on the processing

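Log2(E13.5/E12.5) stayed below 0 for the 26S, 20S and 19S sums under every alternative run, but the 19S sum not always below the median of all genes. Against -0.11, -0.13 and -0.06 for these sums, they came to -0.061, -0.085 and -0.0084 with cells of 2000 genes or more and under 5% mitochondrial UMIs (1593 cells at E13.5 and 2271 at E12.5), to -0.062, -0.086 and -0.011 without the E13.5 cluster that Nanos2 leads, and to -0.069, -0.092 and -0.020 with a denominator free of ribosomal protein and mitochondrial genes and of the 50 genes of highest count, which moved the median of all genes by 0.05. The median of all genes was -0.022 with the stricter cells and -0.015 without the Nanos2 cluster, so the 19S sum lay above it in both settings. The 19S sum lay below that median in the main values (median -0.022) and with the other denominator (median 0.027). With all barcodes the 26S and 20S sums came to -0.12 and -0.14. The count of genes at least 1.2-fold higher was 1, but 0 at a minimum of 50 CPM and 2 with no minimum, and the count lower was 10, with a low of 7. The excess CV of the 26S sum lay within 12.4% to 15.2% at E13.5 and 10.9% to 13.3% at E12.5. Under the stricter cell filter it was 12.54% at E13.5 and 12.85% at E12.5, so its order between stages depends on that filter. The median pair correlation was lower at less depth, at 0.038 at E13.5 and 0.029 at E12.5 at 5000 UMIs, and at 0.039 and 0.027 at that depth without ribosomal protein and mitochondrial genes. The log2 ratio of 26S level between top and bottom S phase groups was 0.15 at E13.5 at 5000 UMIs, and 0.040 at E13.5 and 0.054 at E12.5 without those genes. By G2/M score it was 0.10 at E13.5 at 5000 UMIs, 0.0060 at E13.5 and -0.060 at E12.5 without those genes, and -0.032 at E12.5 without doublets. The cause was not tested, other than that a smaller depth leaves more counting error in a correlation. Leaving out the Nanos2 cluster, removing ribosomal protein and mitochondrial genes, and 5000 UMIs for the cycle groups were chosen after seeing the data. No paired analysis was possible because each stage is 1 library, and for the same reason no replicate could be left out.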
